A study of Mus musculus with 10 samples.

Results

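Lymphoma B cells of 2 related mouse models were compared together with normal germinal centre B cells, and the genes that moved by similar amounts in both models were described. RNA came from reporter-positive, B220-positive cells sorted from the spleens of 10 C57BL/6 mice, and poly(A) RNA was read as single-end reads of 50 nt. The pBIC mice (3 libraries, all female) carry floxed p53 and Blimp1 genes, an IKK2ca allele behind a floxed stop, and Cg1Cre, and model the ABC type of diffuse large B cell lymphoma (ABC-DLBCL). The pBIC10 mice (3 libraries, 2 of them female) carry the same alleles and also a floxed IL-10 gene. The YC controls (4 libraries, 3 of them female) carry Cg1Cre and a YFPstop reporter allele, and their cells were taken 10 days after the second of a pair of immunisations with sheep red blood cells given 20 days apart. Cg1Cre is therefore common to all 3 groups, and the loss of p53 and Blimp1 with active IKK2 is common to both lymphoma groups. Ages are not given in the labels, and the labels of YC repeat some wording of the lymphoma samples, so for these samples the description of the series was used.

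The contrast was the mean of both lymphoma groups, each with equal weight, against YC. A gene was counted as shared when it passed the test in this average, passed it in the same direction in pBIC10 against YC and in pBIC against YC, and differed by less than 1.5-fold between pBIC10 and pBIC. All 10 libraries of the series entered, and 3618 of 17718 tested genes were shared. The test was the quasi-likelihood F test of edgeR, two-sided, and genes were called at an adjusted p under 0.05. Levels are counts scaled by TMM library size (CPM), fold changes are on the log2 scale with their standard error (SE), and n is 3, 3 and 4 for pBIC10, pBIC and YC.

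Germinal centre B cells divide quickly and edit their antibody genes under the control of the repressor BCL6, and then leave the reaction as memory or plasma cells. Blimp1 drives the plasma cell exit, p53 halts or kills damaged cells, and IKK2 releases the transcription factors of the NF-kB family. ABC-DLBCL is known for constant NF-kB activity and a block of the plasma cell exit.

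Libraries held 12.6 to 19.1 M counts. Correlations of log2 CPM across genes, which are not independent replicates, were 0.968 to 0.989 within groups, 0.890 to 0.922 between the lymphoma groups and 0.847 to 0.885 between lymphoma and YC. All 3 pBIC10 libraries had Ighv7-3 as the leading heavy chain variable segment (67.4 to 70.5% of such counts), and all 3 pBIC libraries had Ighv8-11 (51.6 to 59.1%). In YC the leading segment differed from library to library and took 3.7 to 10.9%. The libraries of a lymphoma group thus share a segment that marks a B cell clone, and p-values measure the spread among libraries that may not be independent tumours. The labels put the pBIC and YC libraries in an earlier series and the pBIC10 libraries in this one, so series and group cannot be told apart for pBIC10. The pBIC and YC libraries come from the same earlier series, which does not show that they were prepared together. The part of series in the shared genes was not tested.

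The 4 targeted genes came first. Trp53, which encodes p53, measured 47.4, 49.7 and 36.6 CPM in the pBIC10 libraries, 23.2, 18.3 and 53.3 in those of pBIC, and 198, 194, 198 and 176 in those of YC. All 6 lymphoma libraries lay below all 4 YC libraries, and Trp53 was shared, at a log2 fold change of -2.35 ± 0.25 (adjusted p = 7.40e-06). It was not shared without pBIC10 replicate 3, without pBIC replicate 3, in females alone or with limma-voom, although the call in the average was kept. Ikbkb, the gene of IKK2, measured 422, 414 and 335 CPM in the pBIC10 libraries, 335, 223 and 298 in those of pBIC, and 126, 166, 144 and 129 in those of YC. It too was shared, 1.24 ± 0.15 (adjusted p = 2.13e-05), and the groups did not overlap, but it was not shared without pBIC replicate 1. Prdm1, which encodes Blimp1, was called lower in the average (-3.27 ± 0.39, adjusted p = 2.29e-05) but differed by -3.50 between pBIC10 and pBIC and was not shared. Il10 was not called in the average (-0.24 ± 0.35, adjusted p = 0.577). Reads were counted over whole genes, so a deleted allele that still makes part of its transcript is included.

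The labelled cell type was checked against its markers. Ms4a1, which encodes CD20, stood at 198 to 730 CPM in the lymphoma libraries and at 947 to 1250.4 CPM in YC. Pax5, the B lineage regulator, stood at 215 to 763 CPM in lymphoma and at 1166.5 to 1743.6 CPM in YC, so both markers were present in every library and lower in lymphoma. Cd79a was present too, at 134 to 725 CPM in lymphoma and 655 to 791 CPM in YC. It was called lower in pBIC (-1.92) but not in pBIC10 (-0.42). Gcsam, a germinal centre marker, stood at 45.6 to 151 CPM in YC, was at 0 in 4 lymphoma libraries and did not exceed 0.177 CPM in the other lymphoma libraries. Other germinal centre markers were lower in lymphoma but not all near 0. S1pr2 stood at 3.0 to 26.5 CPM in lymphoma and at 136 to 226 CPM in YC. Fas stood at 3.98 to 9.18 CPM in pBIC10, 32.9 to 45.4 CPM in pBIC and 65.5 to 86.1 CPM in YC. The germinal centre label of YC thus had its markers, while Gcsam was at or near 0 in lymphoma.

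Of 17718 tested genes, 10167 (57.4%) were called in the average, 4856 (27.4%) higher and 5311 (30%) lower, and the median log2 fold change of all genes was 0.03. The called counts of every list below are to be read beside these shares of all tested genes. In pBIC10 against YC 24.8% of genes were called higher and 26.9% lower, and in pBIC against YC 26.4% and 27.7%. Of all tested genes 20.4% were shared: 1982 (11.2%) were shared and higher and 1636 (9.23%) shared and lower, together 35.6% of those called. In 1806 of the 1982 shared higher and 1542 of the 1636 shared lower genes the 6 lymphoma libraries did not overlap the 4 YC libraries. Of all tested genes, 16.4% were higher and 20.0% lower without overlap (36.3% in all). Shared genes were called in these same libraries, so the shares cannot be compared. Shared falls were larger than shared rises. The median fold was 2.70 among shared lower and 2.01 among shared higher genes, and 295 of the lower but 64 of the higher genes differed at least 8-fold.

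The remaining called genes show how the lymphoma groups parted. Both groups were called in the same direction but differed by 1.5-fold or more in 656 higher and 1627 lower genes. A call in pBIC alone was found for 1170 higher and 992 lower genes, and in pBIC10 alone for 942 and 913. A fitted difference under 1.5-fold does not show that the groups are alike. The 95% interval of the difference lay within 2-fold in 1635 of the 1982 higher and in 951 of the 1636 lower genes. Of these 1982 and 1636 genes, 68 and 36 were called different between pBIC10 and pBIC. Among all tested genes 30.7% were called different (15.6% higher and 15.1% lower in pBIC10). Few such calls among shared genes follow from the limit of 1.5-fold, so the shares cannot be compared. Rps2-ps8 lay just inside the limit and Vps8 just outside it, both with a difference of 0.5850.

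**Figure D1:**
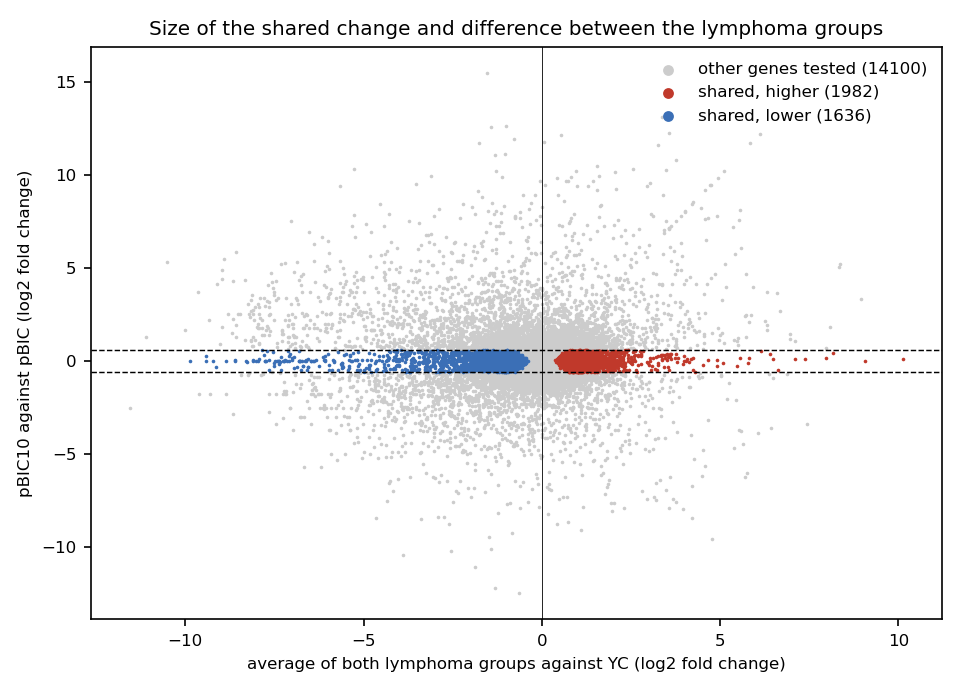
Each point is a tested gene, with the average log2 fold change of both lymphoma groups against YC on the horizontal axis and the log2 fold change of pBIC10 against pBIC on the vertical axis. The 1982 shared higher genes (red) and 1636 shared lower genes (blue) lie between the dashed lines at 1.5-fold, and the lower genes reach further from 0 than most of the higher ones.

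The largest shared rises were in genes at or near 0 in normal cells. Fzd6, a Wnt receptor, had 3 counts over the 4 YC libraries and 3648 over the 6 lymphoma libraries, a ratio of 608 with a 95% counting interval of 208 to 2948.8. Its level was 43.9, 36.6 and 20.5 CPM in pBIC10 and 44.1, 13.5 and 43.9 CPM in pBIC. Pxt1 had 1 count in YC and 713 in lymphoma, a ratio of 356 with an interval of 63.8 to 14096.4, and its log2 fold change was 7.97 and 9.76 without YC replicate 3. Both genes were therefore clearly above YC in all 6 lymphoma libraries, although the size of the ratio rests on very few YC counts.

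Ebf3, a transcription factor related to the B lineage factor EBF1, measured 73.9, 85.6 and 52.1 CPM in the pBIC10 libraries, 66.5, 36.3 and 53.3 in those of pBIC, and 0.0741, 0, 0 and 0.713 in those of YC. Its log2 fold change was 8.17 ± 0.60 (adjusted p = 1.02e-06) and 10.85 without YC replicate 4, the library that held most of its YC counts. In contrast, Ebf1 itself was called lower in both lymphoma groups (-2.03 in pBIC10 and -6.01 in pBIC) and was not shared. B4galt6, which makes lactosylceramide, measured 86.8, 96.7 and 61.3 CPM in the pBIC10 libraries, 70.3, 47.6 and 109 in those of pBIC, and 0.964, 0.655, 0.495 and 1.35 in those of YC. That is a log2 fold change of 6.48 ± 0.36 (adjusted p = 5.31e-08), nearly the same in pBIC10 (6.54) and pBIC (6.43). Car12, a carbonic anhydrase of the cell surface, measured 44.3, 45.0 and 53.3 CPM in the pBIC10 libraries, 54.7, 40.2 and 55.7 in those of pBIC, and 1.41, 0.819, 1.49 and 2.0 in those of YC, a log2 fold change of 5.08 ± 0.25 (adjusted p = 2.54e-08). The difference between the lymphoma groups was -0.08 for Car12, with a 95% interval of -0.58 to 0.42.

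Further genes among the 15 with the largest shared rise were Vmn2r1 (7.39), Tex14 (6.14), Spats2 (5.82), Tmeff1 (5.79), Apobec2 (5.55), Serpina3f (4.90), Lrfn1 (4.30), Cbs (4.19), Evc2 (4.06) and Crnde (3.98), all as log2 fold changes. Cbs encodes an enzyme that turns homocysteine towards cysteine, Evc2 a protein of the hedgehog pathway at the cilium, and Crnde a long noncoding RNA. Lrfn1 was at 5.0 with levels corrected for GC content. The rise of Apobec2 was 6.28 without YC replicate 1. Spats2 was uneven, at 0.644 to 19.1 CPM in the lymphoma libraries, and its log2 fold change was 4.48 without pBIC10 replicate 3 and 4.09 in females alone. Serpina3f and Serpina3g belong to a cluster of near-identical genes, so reads may be split among its copies and their values are uncertain.

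Among genes at 100 CPM or more in the higher group, the shared rises were led by Serpina3f, Gsto1, Alpl and Serpina3g. Gsto1, a glutathione transferase, measured 181, 171 and 166 CPM in the pBIC10 libraries, 96.2, 133 and 179 in those of pBIC, and 12.5, 14.2, 14.4 and 18.3 in those of YC (3.37 ± 0.20, adjusted p = 7.18e-08). Alpl, the tissue-nonspecific alkaline phosphatase, rose by 3.34 ± 0.29 (adjusted p = 1.82e-06). Sub1, a transcription coactivator, was also among the 8 largest, with 2.29 ± 0.22 (adjusted p = 2.48e-06). No lymphoma library of these genes fell to the level of a YC library, as the rule for naming them required.

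**Figure D2:**
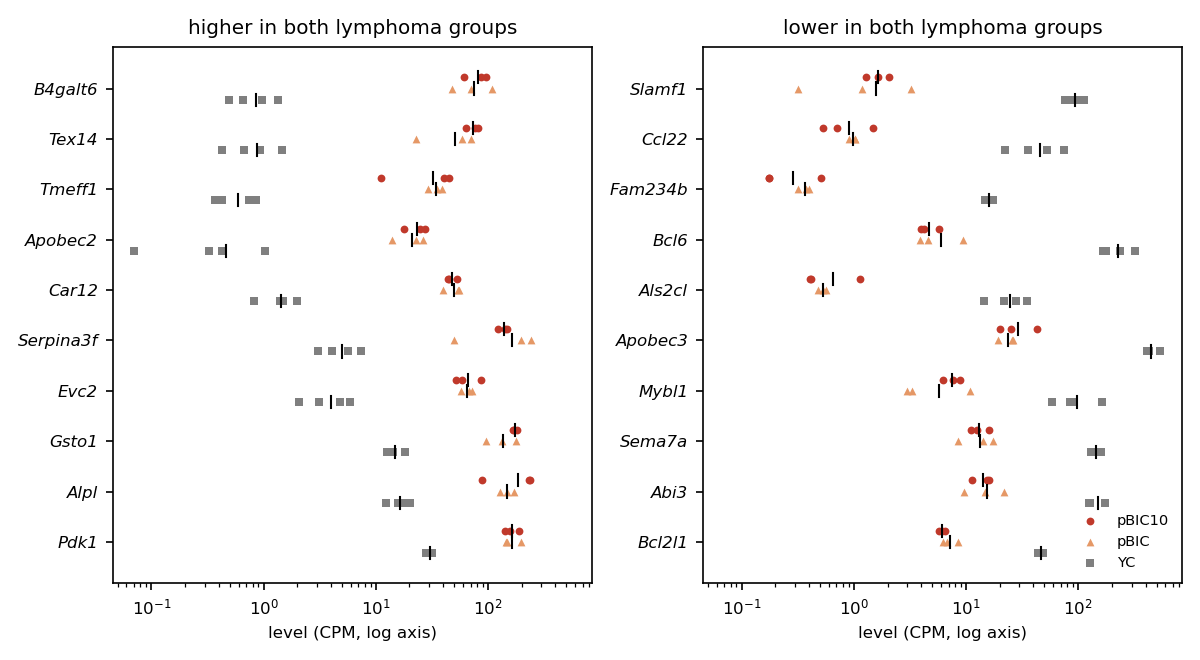
Level of 20 shared genes in every library, in CPM on a log axis, with pBIC10 as circles, pBIC as triangles, YC as squares and group means as short bars. In all 20 genes the 6 lymphoma libraries lie on one side of the 4 YC libraries, and both lymphoma groups lie close together. The rules for sharing and naming genes required both.

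The largest shared falls were in genes absent from lymphoma libraries. Vipr1, a receptor for vasoactive intestinal peptide, had 389 counts over the YC libraries and 0 over the lymphoma libraries, at least 259-fold lower with a floor of 3 counts over the group. Emp2, a membrane protein, had 278 and 0 counts, at least 185-fold lower. Hid1 stood at 0.0536 to 0.354 CPM in lymphoma and at 29.7, 37.0, 10.2 and 26.6 CPM in YC (-7.22 ± 0.47, adjusted p = 1.97e-07). Fam234b fell to the same low level in each lymphoma library, 0.176 to 0.513 CPM against 14.7 to 17.3 CPM in YC (-5.59 ± 0.30, adjusted p = 3.90e-08).

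Slamf1, a receptor that lymphocytes use to contact each other, measured 2.06, 1.64 and 1.28 CPM in the pBIC10 libraries, 3.27, 1.19 and 0.321 in those of pBIC, and 98.7, 113, 76.5 and 87.3 in those of YC (-5.85 ± 0.41, adjusted p = 7.03e-07). Ccl22, a chemokine that draws T cells, measured 0.708, 0.527 and 1.49 CPM in the pBIC10 libraries, 1.02, 1.02 and 0.910 in those of pBIC, and 22.2, 52.4, 35.7 and 74.4 in those of YC (-5.59 ± 0.36, adjusted p = 2.00e-07). Both genes were far below YC in every lymphoma library. Apobec3, a cytidine deaminase that restricts retroviruses, measured 25.2, 20.1 and 42.6 CPM in the pBIC10 libraries, 25.7, 26.0 and 19.3 in those of pBIC, and 539, 413, 429 and 421 in those of YC. With -4.10 ± 0.20 (adjusted p = 2.66e-08) it was among the clearest falls at 100 CPM or more, beside Sema7a (-3.45), Abi3 (-3.34), Fmnl3 (-3.11), Ints6l (-3.01) and Apoe (-2.94). The other genes among the 15 largest falls were Rn7sk (-6.57), Lad1 (-6.11), Gata3 (-5.97), Tox2 (-5.60), Iqcn (-5.49), Bcl6 (-5.41), Als2cl (-5.37), Arhgap6 (-5.36) and Tcf7 (-5.33). Leaving out 1 library moved Arhgap6 to -6.56 (pBIC replicate 1), Lad1 to -6.88 (pBIC10 replicate 1) or -5.36 (YC replicate 4), Tcf7 to -5.96 (pBIC10 replicate 3) and Tox2 to -6.19 (pBIC10 replicate 3) or -6.21 (pBIC replicate 3).

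Most markers of T cells, NK cells and myeloid cells moved in the same direction as several of these genes. The summed level of 20 T cell markers was 575 to 1091.9 CPM in YC, 240 to 269 CPM in pBIC10 and 97.7 to 167 CPM in pBIC, with 19 called lower and none at 0 in any library. The T cell receptor gene Trac stood at 30.7 to 92.0 CPM in YC and at 0.644 to 6.22 CPM in lymphoma. Tcf7, Gata3 and Il18r1 (-5.13) are also known T cell genes, and the part of T cells in their fall was not tested. Myeloid markers summed to 247 to 427 CPM in YC, 152 to 239 CPM in pBIC and 57.6 to 70.3 CPM in pBIC10, with 17 of 21 tested called lower. Csf1r, the macrophage growth factor receptor (-3.80), Adgre1 (-3.12) and Apoe are known macrophage genes, and the part of macrophages in their fall was not tested. NK cell markers summed to 39.8 to 97.2 CPM in YC and to 1.52 to 31.2 CPM in lymphoma, where Ncr1 was at 0 in 3 libraries. Dendritic cell markers summed to 79.9 to 121 CPM in YC and 48.0 to 77.2 CPM in lymphoma, and stromal markers to 267 to 286 CPM and 91.8 to 182 CPM. Single genes carried much of some sums. Cr2 of the stromal list stood at 175 to 200 CPM in YC and at 0 to 12.8 CPM in lymphoma, so the lower stromal sum does not show that this list fell. Of 6 tested stromal markers, 2 were called higher and 2 lower. Flt3 of the dendritic list stood at 45.2 to 52.1 CPM in YC and at 2.09 to 24.3 CPM in lymphoma. Cd2 of the T cell list, which was not called, stood at 78.3 to 191 CPM in pBIC10. The sum of 17 erythroid and platelet markers, carried largely by haemoglobin genes and Tfrc, was 908 to 1801.1 CPM in pBIC10, 236 to 819 CPM in pBIC and 315 to 703 CPM in YC. Of these 17, 1 was called higher and 5 lower, the latter with the platelet genes Ppbp (-6.03), Pf4 (-4.18), Gp9 (-4.07) and Itga2b (-3.35), while the haemoglobin genes were not called. In bulk samples, fewer cells of a type and less RNA per cell cannot be told apart.

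Most of the measured RNAs that lack a poly(A) tail were higher in YC. Replication-dependent histone genes summed to 832 to 1568.6 CPM in YC, 293 to 380 CPM in pBIC10 and 184 to 259 CPM in pBIC. Of 61 tested histone genes, 59 were called lower in lymphoma and 30 were shared. Other such RNAs, Rn7sk among them, summed to 202 to 311 CPM in YC and 19.7 to 29.6 CPM in lymphoma. Of 8 tested, 5 were called lower and 3 were not called, among them Snora73a (0.48) and Snora73b (0.31). Both lists were chosen after their values were seen. The part of RNA selection in these falls was not tested, and of the 3587 shared genes still tested when all such RNAs were left out, 3570 remained shared.

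Germinal centre genes fell together. Of 35 tested, 30 were called lower and 0 higher, with a median log2 fold change of -2.34 against 0.03 over all genes. Bcl6, the master repressor of the germinal centre, measured 5.78, 4.22 and 3.95 CPM in the pBIC10 libraries, 9.49, 4.63 and 3.91 in those of pBIC, and 321, 176, 237 and 168 in those of YC, a log2 fold change of -5.41 ± 0.28 (adjusted p = 5.31e-08). Bcl6 was thus low in all 6 lymphoma libraries. Mybl1, a transcription factor of dividing germinal centre cells (-3.90 ± 0.38), and Cxcr5, the receptor that guides B cells into follicles (-2.02 ± 0.47), were shared as well (adjusted p of 7.25e-06 and 0.00349). Further shared members included Il4ra, Mef2c, Gna13 and Polh, while 18 members were called lower in both groups by unequal amounts. Rgs13, which damps chemokine receptors, is one of those, with -4.70 in pBIC10 and -9.93 in pBIC. The 8 shared members, all lower, made up 22.9% of the list, against 20.4% of all tested genes shared and 9.23% shared and lower. Without pBIC replicate 3 the number of shared members was 4 instead of 8.

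B cell identity genes were lower by smaller amounts. Of 28, 23 were called lower and 0 higher (median -1.17). The 8 shared ones made up 28.6% of the list, against 20.4% of all tested genes shared and 9.23% shared and lower. Cd22, an inhibitory coreceptor of the B cell receptor, measured 444, 522 and 224 CPM in the pBIC10 libraries, 600, 281 and 587 in those of pBIC, and 1800.8, 2541.3, 2507.2 and 1879.2 in those of YC (-2.31 ± 0.26, adjusted p = 1.54e-05). Cd79b, a signalling chain of that receptor, fell by 1.69 ± 0.18, Ms4a1 by 1.29 ± 0.31, and Spi1, the transcription factor PU.1, by 1.08 ± 0.15 (adjusted p of 6.76e-06, 0.00387 and 4.60e-05). These genes stayed well expressed in lymphoma, unlike Bcl6. The number shared was 5 without pBIC10 replicate 3 and 5 with levels corrected for GC content. Of 30 B cell receptor signalling genes, 23 were called lower and 0 higher (median -0.96). The 7 shared ones, 23.3% of the list, were all lower, among them Siglecg (-1.68) and Vav1 (-1.14). With the GC correction 4 were shared.

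Genes that place B cells in tissue were lower too. Of 23 migration receptors and regulators, 20 were called lower and 1 higher (median -2.02), and the 4 shared members were Gpr174 (-3.27), Cxcr5, Gnai2 (-1.0) and Ccr7 (-0.99). These 4 made up 17.4% of the list, against 20.4% of all tested genes shared and 9.23% shared and lower. Without pBIC10 replicate 2 there were 2 shared members. Of 22 immediate early and heat shock genes, 17 were called lower and 1 higher (median -1.90), and 27.3% were shared, all lower. The 6 shared ones were Egr2, Egr3, Klf6, Ier5, Hsph1 and Dnajb1, of which Ier5 overlapped between the groups. Dnajb1, a cochaperone of HSP70, changed by -1.88 ± 0.17 (adjusted p = 1.69e-06). These genes respond within minutes to stimulation or handling, and handling was not tested. Leaving out pBIC10 replicate 1 or 2 or pBIC replicate 3 left 3 shared.

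NF-kB genes were mostly lower although Ikbkb was higher. Of 43 subunits and targets, 30 were called lower and 2 higher (median -0.99), with 9 shared lower and 1 shared higher. That is 23.3% of the list, near the 20.4% of all tested genes. Among the kinases and subunits, Map3k14, which encodes the kinase NIK of the alternative pathway, fell by 2.06 ± 0.18, Rel by 2.05 ± 0.28 and Rela by 0.75 ± 0.13 (adjusted p of 1.16e-06, 8.09e-05 and 2.66e-04). Bcl2l1, which encodes the survival protein BCL-XL, measured 6.49, 5.74 and 6.10 CPM in the pBIC10 libraries, 6.27, 6.78 and 8.46 in those of pBIC, and 44.0, 48.4, 45.6 and 49.1 in those of YC. Both lymphoma groups were tightly grouped at this low level, and the log2 fold change was -2.82 ± 0.15 (adjusted p = 3.90e-08). Birc3, an inhibitor of apoptosis, was the shared member that rose, at 338, 382 and 339 CPM in pBIC10, 303, 189 and 247 CPM in pBIC and 146, 185, 171 and 168 CPM in YC (0.81 ± 0.15, adjusted p = 4.24e-04). Irf4, a regulator that ABC-DLBCL is known to depend on, was shared and lower (-0.92 ± 0.24, adjusted p = 0.00602), although the libraries overlapped. Without pBIC replicate 1, 5 members were shared and lower and 0 shared and higher.

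Promoters of the NF-kB members were searched on both strands for GGG, any 2 bases and TTTCC, in RefSeq windows of 250 bases before to 50 after each start (GRCm38.p6). Of 13 windows of 8 shared lower members 2 held it, against 1.78% of windows of all tested genes and 1.63% of all promoters. The stretches of Bcl2l1 and Rel are shown because both genes fell, and capitals mark the match.

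Bcl2l1: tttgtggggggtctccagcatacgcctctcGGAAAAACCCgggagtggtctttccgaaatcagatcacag

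Rel: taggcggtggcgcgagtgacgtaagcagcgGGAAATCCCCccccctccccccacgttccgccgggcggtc

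They lie at chr2:152830896-152830965 and chr11:23771021-23771090, both read from the minus strand, from 248 to 179 and from 121 to 52 bases before the start. A match describes the letters and is not evidence of binding.

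Targets of p53 did not move in 1 direction. Of 35, 10 were called higher and 14 lower (median -0.28), with 3 and 5 shared. The shared members made up 22.9% of the list, near the 20.4% of all tested genes. Mdm2, the ligase that degrades p53, measured 59.0, 53.2 and 52.6 CPM in the pBIC10 libraries, 57.1, 60.8 and 64.3 in those of pBIC, and 89.1, 100, 148 and 125 in those of YC (-1.0 ± 0.15, adjusted p = 8.95e-05). Ephx1, an epoxide hydrolase, fell by 2.99 ± 0.37 (adjusted p = 4.07e-05), beside Gdf15, Ptprv and Fbxw7. Rps27l (1.17), Zmat3 (0.79) and Ei24 (0.57) were shared and higher. Without pBIC replicate 2 the number shared and higher was 5. Cdkn2a, which encodes p16 and ARF, was called higher in both lymphoma groups (6.53 in pBIC10 and 7.24 in pBIC) but lay outside the limit, with a difference of -0.71.

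The machinery of protein synthesis rose. Of 35 ribosome biogenesis genes, 32 were called higher and 0 lower (median 0.97), and 24 were shared, 68.6% of the list against 11.2% of all tested genes. Wdr12, needed to mature the large subunit RNA, measured 110, 115 and 144 CPM in the pBIC10 libraries, 106, 118 and 105 in those of pBIC, and 22.9, 24.8, 27.8 and 25.7 in those of YC (2.20 ± 0.14, adjusted p = 1.21e-07). Ncl, which encodes nucleolin, measured 2696.7, 2758.8 and 3211.1 CPM in the pBIC10 libraries, 2538.8, 3068.7 and 2443.7 in those of pBIC, and 921, 991, 1242.9 and 1170.3 in those of YC (1.36 ± 0.14, adjusted p = 3.92e-06). Every lymphoma library was above every YC library in both, as the rule for naming genes required. Utp4 (1.63 ± 0.15) and the polymerase I subunits Polr1a (1.12) and Polr1b (1.0) were shared too. Myc, which drives such genes, was called higher in both groups but by unequal amounts (2.72 in pBIC10 and 1.26 in pBIC). With the GC correction 26 members were shared.

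Of 69 cytosolic ribosomal protein genes, 53 were called higher and 0 lower (median 0.62), and 23 were shared, 33.3% of the list. Rpl30 rose most, at 165, 204 and 208 CPM in pBIC10, 121, 199 and 166 CPM in pBIC and 54.6, 51.3, 20.2 and 26.0 CPM in YC (2.21 ± 0.29, adjusted p = 4.96e-05). Such genes have many processed pseudogenes that can share reads, so single members are uncertain. Of 39 nuclear genes of the respiratory chain, 30 were called higher and 0 lower (median 0.58), and 9 were shared, led by Sdhd (1.53), Cox7b (1.18) and Sdhc (1.04). These 9 made up 23.1% of the list, against 20.4% of all tested genes shared and 11.2% shared and higher. Without YC replicate 2 and with sex as a covariate 5 were shared.

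The E-box CACGTG, a letter pattern that MYC and related factors are known to bind, was in 12.2% of promoter windows of shared higher genes, 8.85% of shared lower genes and 9.44% of all tested genes. It was in 5 of 26 windows of shared ribosome biogenesis genes and in 4 of 22 windows of shared ribosomal protein genes. It was also in 4 of 11 windows of immediate early and heat shock genes that were shared and lower. Other letter patterns were searched as well. The ETS site CCGGAAGT was in 5 of the 22 windows of shared ribosomal protein genes, against 7.42% of windows of all tested genes. These 22 windows belong to 17 genes, and windows of a gene can overlap. A single site of Rpl34 was counted in overlapping windows, so windows are not independent. Stretches of a pair of ribosomal protein genes are shown because the genes rose together, with the E-box in capitals.

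Rpl14: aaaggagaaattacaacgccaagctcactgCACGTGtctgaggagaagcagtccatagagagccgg

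Rps19: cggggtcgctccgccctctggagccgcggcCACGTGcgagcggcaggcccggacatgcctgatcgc

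These lie at chr9:120571319-120571384 and chr7:24884763-24884828 (GRCm38.p6, plus strand), from 198 to 133 and from 150 to 85 bases before the start. Rpl14 rose by 1.08 ± 0.14 and Rps19 by 0.56 on the log2 scale.

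**Figure D3:**
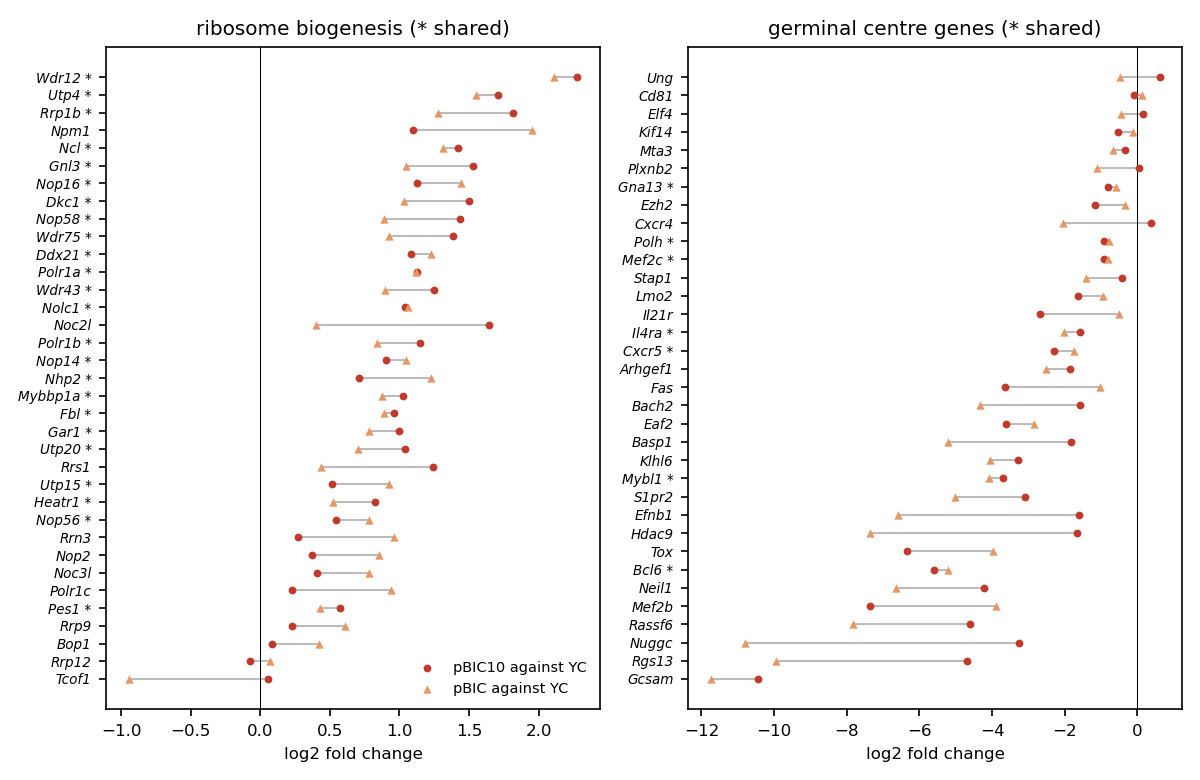
Log2 fold change of the ribosome biogenesis genes (left) and of the germinal centre genes that can be reported by name (right) in pBIC10 (circles) and pBIC (triangles) against YC, with a line joining both values and an asterisk on shared genes. Ribosome biogenesis genes such as Wdr12 (2.28 and 2.11) have both values close together above 0, while many germinal centre genes such as Rgs13 (-4.70 and -9.93) are below 0 by unequal amounts.

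Metabolic genes split by pathway. Of 30 glycolysis and hypoxia genes, 15 were called higher and 6 lower (median 0.58), with 9 shared higher and 1 shared lower. That is 33.3% of the list, against 20.4% of all tested genes. Pdk1, a kinase that inhibits pyruvate dehydrogenase, measured 159, 143 and 191 CPM in the pBIC10 libraries, 144, 147 and 199 in those of pBIC, and 28.2, 31.9, 31.4 and 31.3 in those of YC (2.42 ± 0.15, adjusted p = 1.21e-07). The enolases Eno2 (3.61 ± 0.41) and Eno1 (1.88 ± 0.22), the lactate exporter Slc16a1 (1.61 ± 0.20) and the lactate dehydrogenase Ldha (1.13 ± 0.19) were shared and higher. Slc2a1, which encodes the glucose transporter GLUT1, was the shared member that fell (-1.26 ± 0.23, adjusted p = 4.92e-04), with some overlap of the libraries. The members therefore did not all rise.

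Cholesterol synthesis genes fell. Of 28 cholesterol and lipid genes, 16 were called lower and 6 higher (median -0.62). Shared were 11 lower and 3 higher ones, 50.0% of the list against 20.4% of all tested genes. Insig1, which holds the sterol sensor in place, measured 26.1, 19.6 and 23.7 CPM in the pBIC10 libraries, 21.3, 11.2 and 29.1 in those of pBIC, and 59.4, 78.4, 56.1 and 66.3 in those of YC (-1.58 ± 0.22, adjusted p = 5.52e-05). Enzymes of the pathway such as Hmgcs1 (-1.05), Msmo1 (-1.14) and Fdps (-1.13) were shared and lower. So was Srebf1 (-1.0), a regulator of lipid synthesis that also acts on fatty acid genes. The 3 shared higher members act in fatty acid synthesis: the desaturase Scd2 (2.19 ± 0.28), Acaca (0.85 ± 0.15) and Acly (0.62 ± 0.12). Without pBIC replicate 2 there were 7 shared lower members, and without pBIC replicate 3 there was 1 shared higher member. The enzymes Phgdh (1.35 ± 0.19) and Psph (0.92 ± 0.22) of serine synthesis were shared and higher, while Atf4, which is known to induce them, was shared and lower (-0.88 ± 0.13).

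Mitosis genes were lower or not called, while other cell cycle genes went both ways. Of 32 mitosis genes, 15 were called lower and 0 higher (median -0.44). The 6 shared ones, all lower, made up 18.8% of the list, against 20.4% of all tested genes shared and 9.23% shared and lower. Foxm1, the transcription factor of late cell cycle genes, measured 61.2, 58.2 and 75.9 CPM in the pBIC10 libraries, 62.4, 54.8 and 59.8 in those of pBIC, and 169, 155, 181 and 158 in those of YC (-1.42 ± 0.12, adjusted p = 1.30e-06). Mki67, the marker of dividing cells, was lower as well (-1.15 ± 0.24, adjusted p = 0.00136). Of 36 DNA replication genes, 14 were called lower and 3 higher. The 5 shared ones, 13.9% of the list, were all lower, Pold1 (-1.62, or -1.02 with the GC correction) the largest. Leaving out pBIC10 replicate 1 or 2 or YC replicate 3 left 3 shared. Of 24 G1 cyclins and CDK inhibitors, 8 were called higher and 8 lower, near the shares of all tested genes. Of this list 1 gene was shared, 4.17% against 20.4% of all tested genes. That gene was Cdk6, a G1 kinase, which was higher (1.26 ± 0.22, adjusted p = 2.89e-04).

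Cytokine signalling genes were mostly lower. Of 25 JAK-STAT genes, 15 were called lower and 3 higher (median -0.81). Shared were 7 lower and 1 higher, 32.0% of the list against 20.4% of all tested genes. The kinases Jak1 (-1.87 ± 0.13), Jak3 (-1.68 ± 0.21) and Jak2 (-1.31 ± 0.25) were all shared (adjusted p of 2.51e-07, 2.47e-05 and 7.99e-04). The fall of Jak3 was -1.06 with the GC correction. Jak1 stood at 110 to 180 CPM in the lymphoma libraries and at 430 to 541 CPM in YC. Among interferon gamma response genes 9 of 26 were called in opposite directions in the lymphoma groups, and 2 were shared, Ifngr1 (-1.37) and Jak2. Csf1, a growth factor of macrophages, was shared and higher (3.22 ± 0.39, adjusted p = 2.68e-05). Of 22 Notch pathway genes, 10 were called lower and 5 higher (median -0.58). Only 13.6% of that list was shared, with 3 members higher, among them Notch2 (1.02) and Rbpj (1.03), and 0 lower.

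**Figure D4:**
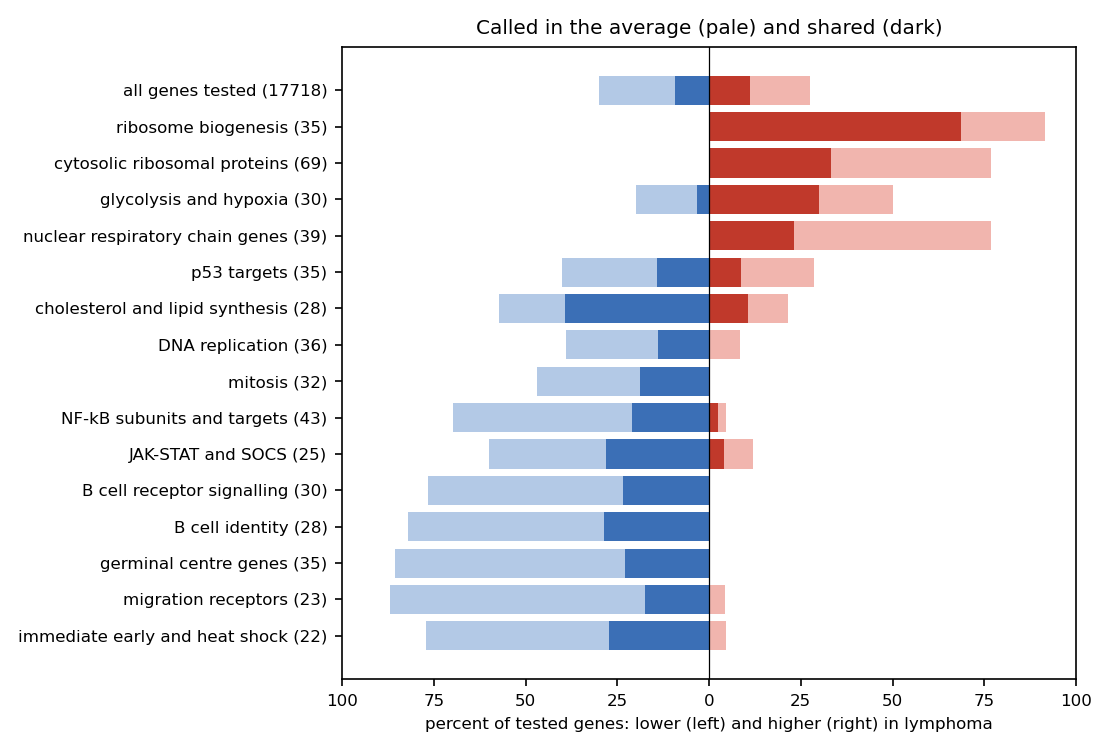
Percent of the tested genes of each list that were called lower (left) or higher (right) in the average of both lymphoma groups, pale, and the shared ones among them, dark, with the number tested in parentheses. Ribosome biogenesis reaches 68.6% shared, all higher, while 30 of 35 germinal centre genes lie on the lower side, 8 of them shared, which is 22.9% of that list.

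The share of shared genes in the remaining lists lay on both sides of the 20.4% of all tested genes, from 4.55% for MHC class I to 26.7% for the type I interferon response. Among 32 plasma cell genes 21 were called lower and 4 higher with 5 shared, among 23 naive and follicular genes 19 and 3 with 4 shared, among 22 marginal zone and B-1 genes 13 and 5 with 4 shared, and among 20 memory genes 8 and 8 with 2 shared. Klf2, which keeps resting B cells in circulation, fell (-2.24 ± 0.38, adjusted p = 3.77e-04; -1.64 with the GC correction), and Bhlhe41 (1.98) and Cd9 (2.19), known from B-1 and marginal zone cells, were higher. Of 22 MHC class I genes 1 was shared, Canx (0.80), and of 20 MHC class II genes 5, with H2-DMb1 (-1.64) and Rfxank (-2.02) lower and Lgmn (1.03) and Ifi30 (0.53) higher. Among 30 chromatin modifiers Crebbp (-1.17), Smarca4 (-1.05) and Dnmt1 (-0.99) were shared and lower and Hdac2 (0.75) higher. Among 30 DNA repair genes Xrcc1 (-1.98) and Polh (-0.86) were lower and Apex1 (1.14) and Atr (0.96) higher. Lists of 12 to 41 genes for the MYC network, lymphoma genes, integrins, costimulation, apoptosis, cytokines, cytokine receptors and the type I interferon response had 2 to 9 shared members each.

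Shared genes differed in base composition. The median GC content of the longest transcript was 47.5% for shared higher genes, 49.7% for all tested genes and 53.1% for shared lower genes. In the lowest of 10 equal bins of genes by GC content 16.1% were shared and higher and 4.44% shared and lower, and in the highest bin 5.55% and 17.1%. The median log2 fold change went from 0.31 to -0.51 between these bins in the average, while that of pBIC10 against pBIC stayed between -0.07 and 0.04. After levels were corrected for GC content in each library, 1867 higher and 1435 lower genes were shared, and 2740 of the 3618 shared genes (75.7%) remained shared. Whether the trend comes from the libraries or the cells was not tested.

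**Figure D5:**
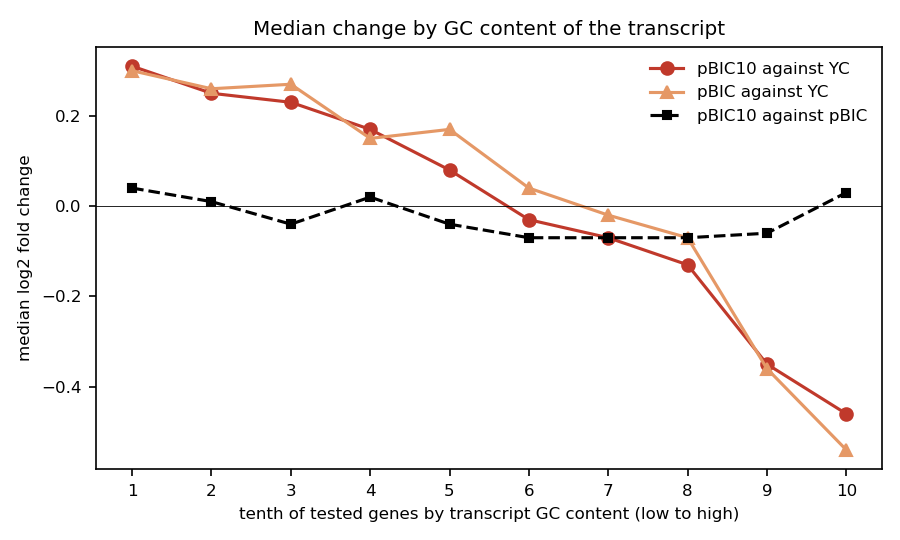
Median log2 fold change of genes in 10 equal bins of transcript GC content, from lowest to highest, for pBIC10 against YC (circles), pBIC against YC (triangles) and pBIC10 against pBIC (squares). Both lymphoma groups run from 0.31 and 0.30 in the lowest bin to -0.46 and -0.54 in the highest, and the comparison between them stays near 0.

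Shared genes were found on every autosome and the X chromosome. The share of tested genes that were shared was 13.7% on chromosome 12, the lowest, and 23.7% on chromosome 3, the highest. Shared higher genes made up 17.0% of tested genes on the X chromosome and 6.84% on chromosome 12, and shared lower genes 13.5% on chromosome 11 and 3.62% on chromosome 18.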

How the data were processed

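The authors deposited raw counts of reads per gene, 1 column per library, made with featureCounts after FastQC on GRCm39, per the submitters' processing notes. Aligner, annotation release and strand setting were not given in the sources used here, so overlapping and antisense genes cannot be told apart. Every column was matched to its sample. In R 4.3.3, edgeR 4.0.16 (filterByExpr, TMM, robust quasi-likelihood fit with a coefficient for each group and all 10 libraries) tested 17718 of 46316 genes. Benjamini-Hochberg adjustment ran over all tested genes of a comparison. The SE is the log2 fold change divided by the square root of F. The common dispersion was 0.0835, with 7 residual degrees of freedom. Libraries of 12.6 to 19.1 M counts set a floor of 0.157 to 0.238 CPM (3 counts), and counting intervals cover counting error only.

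Members and 44 gene lists were chosen with earlier results of these data known, and 2 of the lists after their values were seen here. Named genes were the 4 targeted genes, the 15 largest shared changes in each direction (at least 5 CPM, no overlap between lymphoma and YC libraries), the 8 largest at 100 CPM or more, and up to 3 shared members of each list and direction. Antigen receptor, mitochondrial, sex-specific and predicted genes were not named under this rule. Other genes in the text (Cdkn2a, Myc, Ebf1, Rgs13, Gcsam, Trac and further list members) were chosen after their values were seen. GC content, chromosomes and promoters came from GENCODE M21 and RefSeq tables of the GRCm38 assembly, matched by symbol and without promoters of chromosome 18, with 98.2% of tested genes matched to RefSeq.

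On simulated data for this average (17718 genes), 52 of 100 genes changed 2-fold in both lymphoma groups and 87 of 100 changed 4-fold were called, and 23 and 77 were shared. Of genes changed in pBIC10 alone, 0 were shared. Few genes were changed in the simulation, and 182 were called in its average against 10167 in the data. These rates therefore need not hold for the data. The alternatives comprised DESeq2 1.42.0, voom in limma 3.58.1, other scalings, filters and limits, sex as a covariate, females alone, both lymphoma groups as 1, and each library left out. Leaving out RNAs without poly(A) and correcting for GC content were added after seeing the data. Figures were drawn with matplotlib 3.10.9. Some genes that belong to the lists are counted there but not reported by name.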

Additional observations from a re-analysis of the deposited data

Results flagged for a closer look

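Among 143 named genes, the 4 YC libraries of 14 had 1 library far from the rest, with a gap above Dixon's 95% critical value for 4 samples, and chance flags about 1 in 20 groups. In CPM, YC replicate 1 stood apart in Apobec3 (539 against 413 to 429), Egr2 (33.3 against 65.2 to 68.4), Pdk1 (28.2 against 31.3 to 31.9), Pvr (6.01 against 8.77 to 8.93) and Zmat3 (12.8 against 10.8 to 10.9). YC replicate 3 stood apart in Cenpe (193 against 134 to 141), Fzd6 (0 against 0.0713 to 0.0819), Pxt1 (0.0707 against 0), Rfc2 (248 against 201 to 207), Smarca4 (810 against 646 to 669) and Xrcc1 (450 against 296 to 322). YC replicate 2 did so in Hmgcs1 (61.2 against 82.8 to 86.2) and Irf9 (96.1 against 77.1 to 80.1), and YC replicate 4 in Ebf3 (0.713 against 0 to 0.0741). These 14 genes were named under the rule of no overlap, so none of their YC libraries could lie among the lymphoma libraries.

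In 11 named genes the change against YC differed between the lymphoma groups by the edgeR test of pBIC10 against pBIC. The log2 difference was -3.50 for Prdm1 (adjusted p = 5.63e-04) and -1.88 for Il10 (adjusted p = 0.00809), neither of which was shared. The other 9 were shared, with a difference under 1.5-fold. It was positive for Ifngr1 (0.58, adjusted p = 0.0200), Birc3 (0.52, adjusted p = 0.0455), Pold1 (0.51, adjusted p = 0.0425) and Herpud1 (0.50, adjusted p = 0.0336). It was negative for Hmgcs1 (-0.58, adjusted p = 0.0335), Incenp (-0.58, adjusted p = 0.0187), Rpl14 (-0.56, adjusted p = 0.0250), Ero1a (-0.50, adjusted p = 0.0290) and Rplp0 (-0.45, adjusted p = 0.0405).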

How the results depend on the processing

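All but 4 of the counts from the alternatives run stayed within 1.5 times. The number shared and higher was 1254 at an adjusted p of 0.01 and 1000 at a change of at least 2-fold, where 2205 genes were higher in the average. The number shared and lower was 961 when the 95% interval of the difference had to lie within 2-fold in place of the fitted difference under 1.5-fold. The first and second of these limits are stricter by construction, while the interval rule is a different one, and 951 of its 961 lower genes were also shared under the fitted limit. With each library left out in turn, the average held 4018 to 5126 higher and 4655 to 5818 lower genes, and 1612 to 2193 higher and 1430 to 1658 lower genes were shared. Of the 3618 shared genes, 69.3% remained shared in females alone, the lowest of the refits compared, and 98.9% with upper quartile scaling, the highest. Other scalings moved the median log2 fold change by at most -0.04. Of 3282 pairs of a named gene and an alternative, 3281 kept their direction and their side of the threshold; Il10 changed sign when both lymphoma groups were fitted as 1 group (0.04, adjusted p = 0.958), and was not called in either fit. No paired analysis was possible because the labels give the groups no shared replicate numbers. With limma-voom the log2 fold change moved by over 1.5-fold in Ebf3 (9.13), Emp2 (-7.45), Vipr1 (-7.88), Pxt1 (7.07) and Spats2 (4.96), and with both lymphoma groups as 1 group in Prdm1 (-2.40). In females alone it did so in Pxt1 (9.77), Tcf7 (-6.14) and Tox2 (-6.22). The causes were not tested.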
